A study of Homo sapiens with 9 samples.

Results

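The lysosomal genes described here were 51 genes of 4 kinds, out of 58395 genes in each table: 3 genes of the TFEB family of transcription factors, 8 lysosomal membrane protein genes, 25 genes of hydrolases and their cofactors, and 15 genes of the V-ATPase proton pump. They stood in a list of genes with a known function in the lysosome, drawn up with earlier results of these data known, and all 51 were found by symbol and were tested in every comparison. Their mRNA was measured by RNA-seq in 9 libraries of HCT116, a cell line from a human colon carcinoma. All 9 came from cells that carried shSTBD1, a short hairpin RNA against STBD1. The cells labelled plvx neo had the vector without an insert, and the other kinds expressed a hairpin-resistant STBD1, as the wild type (STBD1 WT) or with the exchange of a tryptophan for a cysteine in the motif that binds GABARAPL1, a protein of the autophagosome membrane (STBD1 W203C). Each group had 3 libraries, of stable lines for which clonal or pooled origin was not stated, and no line without the hairpin was among them. File names of the tables and sample labels exchange STBD1 WT and STBD1 W203C. The labels were followed. If they were wrong, each direction between these groups would turn around, and the values given for STBD1 WT vs plvx neo would belong to STBD1 W203C and the reverse. The first comparison below is STBD1 WT against plvx neo, the second STBD1 W203C against STBD1 WT, and the third STBD1 W203C against plvx neo.

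Lysosomes break down the cargo that autophagy and endocytosis deliver. Acid hydrolases act in the lumen, membrane proteins carry lipids and ions across a protected boundary, and the V-ATPase keeps the lumen acid by coupling ATP hydrolysis in its V1 part to proton transport through its V0 part. TFEB, TFE3 and MITF are related factors that bind E-box letters in the promoters of many of these genes and are held in the cytoplasm by mTORC1 when nutrients are plentiful, so that their mRNA level is not a readout of their activity. STBD1 binds glycogen and is studied as a receptor that hands it to autophagy, and GAA, the acid alpha-glucosidase of the lysosome, breaks it down there.

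Since binding of the TFEB family depends on promoter letters, the promoters were read first. RefSeq windows (GRCh38.p14, 250 bases before to 50 after a start site) were matched for 37 of the 51 genes. The letters CACGTG, a palindrome that reads alike on both strands, were found in 9 of their 52 windows (17.31%) and in 2548 of the 35116 windows of all genes (7.26%). The longer palindrome TCACGTGA, which holds the first, was found in 5 of the 52 (9.62%) and in 344 of the 35116 (0.98%). The 9 genes were LAMP1, MCOLN1, CD63, CTSA, CTSD, NEU1, ATP6V0B, ATP6V0D1 and ATP6V1G1. None of the 3 TFEB family genes had the letters in its windows. The 6 stretches below run 5′ to 3′ along the gene, from 200 bases before the start to the first 10 bases after it, with CACGTG, or TCACGTGA where the longer form is there, in capitals. They are shown because these genes recur in the results, and a match is only a match of letters.
LAMP1 (chr13:113297039-113297248, plus strand): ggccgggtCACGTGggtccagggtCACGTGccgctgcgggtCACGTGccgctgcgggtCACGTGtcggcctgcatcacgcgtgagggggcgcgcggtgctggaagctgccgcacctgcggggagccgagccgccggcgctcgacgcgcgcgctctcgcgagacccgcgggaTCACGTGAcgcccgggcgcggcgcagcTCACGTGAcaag
MCOLN1 (chr19:7522424-7522633, plus strand): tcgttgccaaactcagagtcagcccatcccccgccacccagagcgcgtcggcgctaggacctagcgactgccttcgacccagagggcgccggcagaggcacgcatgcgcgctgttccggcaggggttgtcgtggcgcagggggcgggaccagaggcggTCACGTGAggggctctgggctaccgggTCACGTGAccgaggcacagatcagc
CTSD (chr11:1763918-1764127, minus strand): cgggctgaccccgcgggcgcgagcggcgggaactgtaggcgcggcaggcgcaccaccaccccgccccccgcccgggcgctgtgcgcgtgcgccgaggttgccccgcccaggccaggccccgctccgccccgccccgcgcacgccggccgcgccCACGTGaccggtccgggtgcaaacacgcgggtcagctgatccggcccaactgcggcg
NEU1 (chr6:31862812-31863021, minus strand): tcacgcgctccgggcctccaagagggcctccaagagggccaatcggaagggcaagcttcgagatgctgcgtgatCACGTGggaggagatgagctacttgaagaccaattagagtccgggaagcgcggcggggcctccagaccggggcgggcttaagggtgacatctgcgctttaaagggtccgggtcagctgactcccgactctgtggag
ATP6V0D1 (chr16:67481148-67481357, minus strand): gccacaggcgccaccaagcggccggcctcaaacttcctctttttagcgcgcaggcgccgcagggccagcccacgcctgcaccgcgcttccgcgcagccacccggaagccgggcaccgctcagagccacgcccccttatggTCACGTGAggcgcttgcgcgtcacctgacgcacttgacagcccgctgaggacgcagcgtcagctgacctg
ATP6V1G1 (chr9:114587569-114587778, plus strand): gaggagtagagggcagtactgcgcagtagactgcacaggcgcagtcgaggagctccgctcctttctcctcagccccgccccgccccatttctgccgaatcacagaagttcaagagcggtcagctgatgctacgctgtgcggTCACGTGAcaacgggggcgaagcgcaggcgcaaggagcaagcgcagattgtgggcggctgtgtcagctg
LAMP1 held 6 copies of CACGTG, 2 of them inside TCACGTGA, and MCOLN1 held 2, both inside TCACGTGA. ATP6V0D1 and ATP6V1G1 each held 1 TCACGTGA, 59 and 58 bases before the start, counted to the first base of CACGTG. CTSD and NEU1 each held 1 CACGTG, 47 and 126 bases before it.

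Total expected counts per library ranged from 16.9 M to 23.3 M, and replicate pairs differed by 2.12 to 3.87 chi-square units per gene, above the value near 1 that sampling alone gives. STBD1 was at 2.75 to 3.84 TPM in plvx neo, 10.8 to 10.9 TPM in STBD1 WT and 8.37 to 10.3 TPM in STBD1 W203C. TPM is a level scaled for transcript length and library size. STBD1 was lower in STBD1 W203C than in STBD1 WT by a log2 fold change of -0.28 (edgeR adjusted p = 0.00945). The read-through gene FAM47E-STBD1 had log2 fold changes of 4.06, -0.27 and 3.78 in the 3 comparisons. It overlaps STBD1 on the same strand and averaged 27.4 TPM over the 9 libraries, beside 7.75 TPM for STBD1. How reads were divided between these 2 genes is uncertain, and with it the level of STBD1. Of 11 epithelial markers 8 averaged at least 1 TPM, with EPCAM at 202 TPM, while CDX1 was at 0 in every library. The 11 summed to 4062 to 4175 TPM in plvx neo, 3762 to 3888 TPM in STBD1 WT and 3464 to 3733 TPM in STBD1 W203C. Of 10 markers of other cell types PTPRC, CD3E, COL3A1, PECAM1 and VWF averaged below 0.1 TPM, and CD68 (3.06 TPM) and COL1A1 (16.5 TPM) exceeded 1 TPM. Summed over the 10, these markers were at 16.9 to 19.3 TPM in plvx neo, 22.1 to 26.3 TPM in STBD1 WT and 16.1 to 20.8 TPM in STBD1 W203C, and the part of both marker lists in the results was not tested. The study's methods call the 3 libraries of a group biological replicates, without saying whether they were separate cultures, and p-values measure the spread between these libraries.

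The 51 genes took 0.431% to 0.436% of the counts in plvx neo, 0.456% to 0.460% in STBD1 WT and 0.436% to 0.444% in STBD1 W203C. In bulk RNA a lower level can stem from fewer cells with the transcript or from less RNA per cell, and these cannot be told apart. Expected counts ran from 44 for MITF to 13126 for PSAP in a library. By mean level over the 9 libraries, CD63 was highest at 302.6 TPM and MITF lowest at 0.889 TPM. Summed TPM of the hydrolase and cofactor genes separated the groups, with 1222 to 1235 in plvx neo, 1265 to 1304 in STBD1 W203C and 1339 to 1352 in STBD1 WT. The V-ATPase genes summed to 978 to 1025 in plvx neo and 999 to 1025 in STBD1 WT, which overlapped, and to 1080 to 1106 in STBD1 W203C, above both. By summed TPM the 2 kinds therefore had their highest value in different groups. TPM and counts did not order the groups alike, however. All 51 genes together averaged a summed TPM of 3241 for STBD1 W203C and 3208 for STBD1 WT, whereas STBD1 WT had the larger share of counts. By counts the median log2 fold change of the V-ATPase genes was 0.078 in the second comparison and 0.045 in the third. The TPM sums were not set against all genes, and the cause of the difference was not tested.

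The first comparison, STBD1 WT vs plvx neo, asks what the wild-type protein changes in cells with the hairpin. Of the 51 genes, 17 (33.3%) passed the edgeR test at a Benjamini-Hochberg adjusted p below 0.05 over all genes, against 27.8% of all genes tested. Of the 17, 14 were higher in STBD1 WT and 3 were lower, where 13.9% of all genes were called higher and 13.9% lower. The higher genes were IDUA, MAN2B1, NEU1, TFE3, GRN, NPC1, SGSH, ATP6V0A1, MANBA, CTSD, TPP1, IDS, LAPTM4A and PSAP, and the lower ones PPT1, CTSC and ATP6V1E1. The median log2 fold change was 0.069 for the 51 genes and 0.0061 for all genes. For 23 of the 51 genes no TPM value of 1 group lay within the range of the other, a state that 31.3% of all genes were in. With a correction for GC content and length the split was 12 higher and 10 lower among 22 calls, 14 of them shared, while 10.6% of all genes were then called higher and 21.8% lower. The corrected median was 0.0097, against -0.037 for all genes. Only IDUA passed with a change of at least 1.5 times, beside 3.54% of all genes. limma on log2(TPM + 1) called 9 of the 51, all higher. Leaving out STBD1 WT replicate 3 raised the median to 0.095.

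The second comparison sets the constructs against each other. In it 18 of the 51 genes (35.3%) passed the same edgeR test, against 27.9% of all genes. In STBD1 W203C 12 were lower and 6 higher than in STBD1 WT, where 13.4% of all genes were called lower and 14.5% higher. Lower were IDUA, MAN2B1, NPC1, TFE3, NEU1, GRN, ATP6V0A1, IDS, CTSB, PSAP, NPC2 and LAPTM4A, and higher were ATP6V1G1, CTSC, ATP6V0C, PPT1, ASAH1 and LAMP1. For 23 genes the TPM ranges were apart, while 33.1% of all genes were in that state. The median was -0.034, beside -0.0078 for all genes, and its sign was not stable: it was 0.0094 without STBD1 W203C replicate 1 and 0.027 (all genes 0.037) after the correction for GC content and length, while without STBD1 WT replicate 1 it was -0.017. After that correction 22 genes passed, 11 higher and 11 lower, 15 of them shared, while 21.8% of all genes were called higher and 9.59% lower. By comparison, limma on log2(TPM + 1) called 3. These libraries of STBD1 WT are the same ones that were compared with plvx neo, so that the fall of a gene here and its rise there are not independent.

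In the third comparison STBD1 W203C differed from plvx neo in 4 of the 51 genes (7.84%), where 5.7% of all genes were called. All 4 were higher, CTSD, GRN, ATP6V0C and ATP6V0D1, where 3.03% of all genes were called higher and 2.67% lower. The median log2 fold change was 0.028, beside -0.0031 for all genes, and the TPM ranges were apart for 16 genes, while 20.2% of all genes were in that state. After the correction 5 passed, all higher, while 4.14% of all genes were called higher and 2.84% lower. Only ATP6V0C kept its call in each of the 6 fits that left out 1 library. The count of 4 fell to 1 without STBD1 W203C replicate 1, STBD1 W203C replicate 2 or plvx neo replicate 2 and to 2 without STBD1 W203C replicate 3 or plvx neo replicate 3. Over the 3 comparisons, 27 of the 51 genes passed in none. The share of all genes that passed in none was not computed, so that this count cannot be read as high or low.

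**Figure D1:**
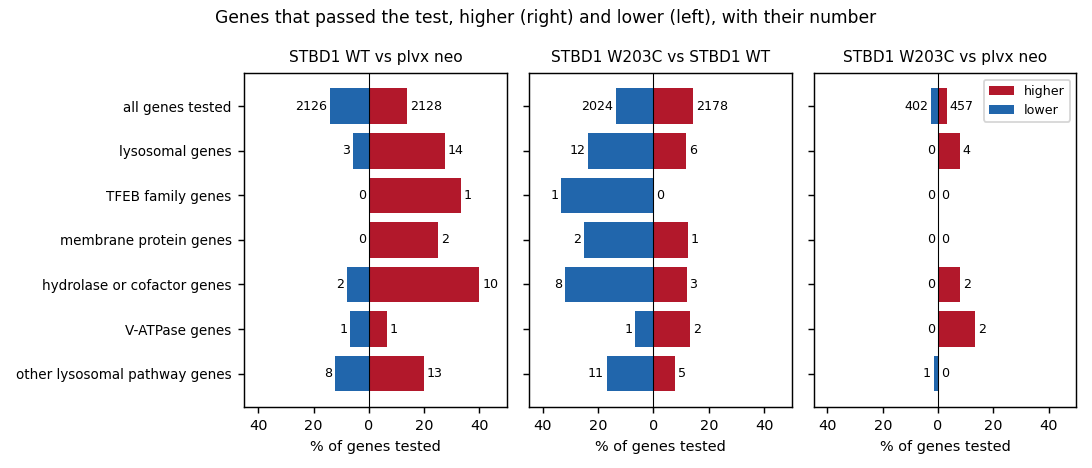
Share of genes that passed the edgeR test in each comparison, in percent of the genes tested, for all genes, the 51 lysosomal genes, their 4 kinds and the other lysosomal pathway genes. Bars to the right are genes that were higher and bars to the left genes that were lower, with the number of genes at the end of each bar; among the hydrolase and cofactor genes 10 were higher in STBD1 WT vs plvx neo and 8 lower in STBD1 W203C vs STBD1 WT.

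Within the TFEB family, TFE3 (ENSG00000068323, chromosome X, 49028726 to 49043410, minus strand, hg38) was the only gene that passed. Its TPM was 8.11, 7.87 and 9.12 in plvx neo, 12.2, 13.03 and 10.8 in STBD1 WT and 10.4, 10.2 and 9.98 in STBD1 W203C. The 3 groups did not overlap, with STBD1 W203C between the others. TFE3 rose in STBD1 WT vs plvx neo by a log2 fold change of 0.43 (SE 0.0718, edgeR adjusted p = 1.45e-04) and fell by 0.31 in STBD1 W203C vs STBD1 WT (SE 0.0728, edgeR adjusted p = 0.00308). Its log2 fold change in STBD1 W203C vs plvx neo was 0.12 (95% interval -0.03 to 0.26).

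TFEB, the factor best known for switching on lysosomal genes, was at 3.29, 3.79 and 4.52 TPM in plvx neo, 3.98, 4.30 and 3.63 in STBD1 WT and 3.16, 3.34 and 3.48 in STBD1 W203C. STBD1 W203C lay below STBD1 WT in every library, but the log2 fold change of -0.30 (95% interval -0.55 to -0.04) had an edgeR adjusted p of 0.0963. Its value in STBD1 WT vs plvx neo was 0.14 (95% interval -0.10 to 0.37). MITF, better known from pigment cells, was at 0.78, 0.98 and 0.77 TPM in plvx neo, 0.70, 1.06 and 0.93 in STBD1 WT and 0.75, 1.39 and 0.64 in STBD1 W203C. Its groups overlapped. Its log2 fold changes were 0.02, 0.09 and 0.10 in the first, the second and the third comparison, each with an interval more than 0.8 wide.

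**Figure D2:**
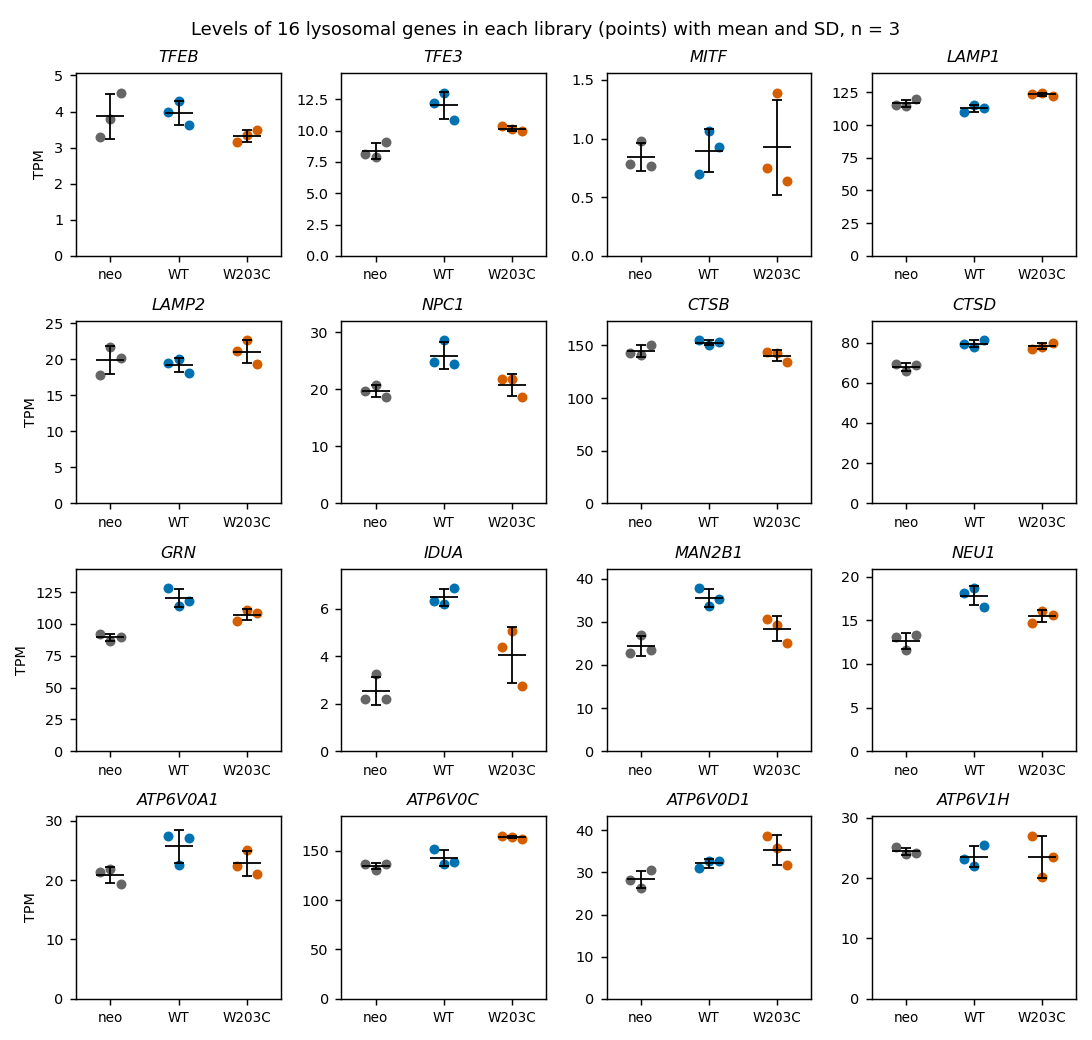
TPM of 16 lysosomal genes in each library, on axes that start at 0. Points are libraries, and the black marks are the mean and SD of the 3 libraries of plvx neo (neo), STBD1 WT (WT) and STBD1 W203C (W203C); IDUA, MAN2B1, NEU1 and GRN lay higher in every STBD1 WT library than in every plvx neo library, and ATP6V0C was highest in STBD1 W203C.

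Among the 8 membrane proteins, 2 passed in the first comparison, 3 in the second and 0 in the third by edgeR, where 1 had an unadjusted p below 0.05 and DESeq2 gave 0. All genes passed at 27.8%, 27.9% and 5.7%. After the correction for GC content and length 5 passed in the first comparison, 3 higher and 2 lower, and 5 in the second, 2 higher and 3 lower. NPC1 (ENSG00000141458, chromosome 18, 23506184 to 23586506, minus strand), which moves cholesterol out of the lysosome, moved most in the first and the second comparison. It was at 19.8, 20.8 and 18.7 TPM in plvx neo, 24.8, 28.6 and 24.4 in STBD1 WT and 21.9, 21.8 and 18.6 in STBD1 W203C. Every STBD1 WT library lay above every other library. NPC1 rose by a log2 fold change of 0.30 in STBD1 WT vs plvx neo (SE 0.0531, edgeR adjusted p = 2.86e-04) and fell by 0.33 in STBD1 W203C vs STBD1 WT (SE 0.0532, edgeR adjusted p = 9.10e-05). It overlaps RMC1 on the opposite strand, and whether counting used the strand was not stated, so that its level is uncertain.

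LAMP1 and LAMP2 are the most abundant glycoproteins of the lysosomal membrane. LAMP1 (ENSG00000185896, chromosome 13, 113297239 to 113323672, plus strand), whose promoter held the most motif letters, was at 115.4, 114.7 and 120.0 TPM in plvx neo, 110.1, 115.6 and 112.8 in STBD1 WT and 123.6, 124.7 and 122.7 in STBD1 W203C. The STBD1 W203C libraries were above all others. LAMP1 passed in STBD1 W203C vs STBD1 WT with a log2 fold change of 0.10 (SE 0.0359, edgeR adjusted p = 0.0494), a call that was lost without any library but STBD1 WT replicate 2 (edgeR adjusted p from 0.0813 to 0.13). Of the 10 other alternatives 5 called LAMP1, and the replicate block did not (edgeR adjusted p = 0.107). After the GC and length correction it was at 0.15 in that comparison (edgeR adjusted p = 0.00169) and at -0.09 in STBD1 WT vs plvx neo (0.0404), where it was at -0.04 before (0.476). The corrected medians of all genes were 0.037 and -0.037 in these comparisons. LAMP2 was at 17.8, 21.7 and 20.2 TPM in plvx neo, 19.5, 20.1 and 18.1 in STBD1 WT and 21.1, 22.6 and 19.4 in STBD1 W203C. Its groups overlapped, and its log2 fold changes lay between -0.04 and 0.03. LAPTM4A, a small transporter-like protein of the lysosomal membrane, was higher in STBD1 WT vs plvx neo by 0.13 (SE 0.0402, edgeR adjusted p = 0.0200) and lower in STBD1 W203C vs STBD1 WT by 0.12, a log2 fold change of -0.12 (SE 0.0411, edgeR adjusted p = 0.0377). The first call was lost without STBD1 WT replicate 1 or 3 or plvx neo replicate 2 or 3 (edgeR adjusted p from 0.0528 to 0.0814), the second without STBD1 W203C replicate 2 or 3 or STBD1 WT replicate 1 or 3 (0.0782 to 0.183). Without any 1 of these libraries NPC1 was the only membrane protein gene that passed in the comparison concerned.

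MCOLN1, the calcium channel mucolipin 1 of the lysosome, had 14.4, 11.5 and 16.8 TPM in plvx neo, 14.3, 16.6 and 15.9 in STBD1 WT and 17.5, 15.7 and 18.0 in STBD1 W203C. Its groups overlapped, and the log2 fold change of 0.24 in STBD1 W203C vs plvx neo (95% interval 0.08 to 0.40) had an edgeR adjusted p of 0.0827. After the GC and length correction it was at 0.21 in STBD1 W203C vs STBD1 WT (edgeR adjusted p = 0.0363), from 0.09 before. MCOLN1 overlaps PNPLA6 on its own strand, which makes its level uncertain. SCARB2, the receptor that carries glucocerebrosidase to the lysosome, showed a count log2 fold change of 0.12 in STBD1 WT vs plvx neo (edgeR adjusted p = 0.0518) although its TPM was 21.8 to 26.7 in plvx neo and 21.1 to 21.7 in STBD1 WT. Counts and TPM thus differed in sign for this gene, as they did for other members, among them ATP6V1D in the first comparison and LAPTM4B in the third. CD63 and LAPTM4B had log2 fold changes from -0.07 to 0.09 in the 3 comparisons. After the GC and length correction LAPTM4B passed in the first at -0.093 (edgeR adjusted p = 0.0294), beside a corrected median of -0.037 for all genes. SCARB2 then passed at 0.12 in the first (0.0273) and at -0.12 in the second (0.0373).

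Hydrolases and their cofactors held most of the calls in the first and the second comparison. In the first comparison 12 of the 25 passed, 10 higher and 2 lower, and their median log2 fold change was 0.099. In the second comparison 11 passed, 3 higher and 8 lower, with a median of -0.11, and in the third 2 passed, both higher, with a median of 0.0049. The shares were 48%, 44% and 8%, beside 27.8%, 27.9% and 5.7% of all genes. After the correction for GC content and length 7 were higher and 4 lower in the first comparison (median 0.028) and 3 higher and 6 lower in the second (median -0.061), with all genes at 10.6% higher and 21.8% lower in the first and 21.8% and 9.59% in the second. In the second, 7 passed without STBD1 W203C replicate 1 and 6 without STBD1 W203C replicate 3 or STBD1 WT replicate 2.

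The 11 genes of glycan breakdown held the largest changes. IDUA (ENSG00000127415, chromosome 4, 986997 to 1004564, plus strand), which removes iduronic acid from heparan and dermatan sulfate, was at 2.21, 3.24 and 2.21 TPM in plvx neo, 6.35, 6.22 and 6.88 in STBD1 WT and 4.39, 5.05 and 2.74 in STBD1 W203C. STBD1 WT stood above both other groups, which overlapped. Its expected counts were 54 to 148 per library, and its log2 fold change was 1.02 in STBD1 WT vs plvx neo (SE 0.156, edgeR adjusted p = 5.71e-05). In STBD1 W203C vs STBD1 WT it fell by 0.67 (SE 0.158, edgeR adjusted p = 0.00268). Against plvx neo its log2 fold change in STBD1 W203C was 0.34 (95% interval -0.03 to 0.72).

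MAN2B1 (ENSG00000104774, chromosome 19, 12646511 to 12666742, minus strand), the lysosomal alpha-mannosidase, was at 22.7, 27.0 and 23.4 TPM in plvx neo, 37.8, 33.6 and 35.3 in STBD1 WT and 30.7, 29.2 and 25.1 in STBD1 W203C. Every STBD1 WT library was above the rest. The log2 fold change was 0.58 in STBD1 WT vs plvx neo (SE 0.0542, edgeR adjusted p = 1.21e-07) and -0.41 in STBD1 W203C vs STBD1 WT (SE 0.0549, edgeR adjusted p = 1.05e-05), and these 2 calls held in each of the 16 alternative fits. NEU1 (ENSG00000204386, chromosome 6, 31857659 to 31862905, minus strand), the sialidase that trims sialic acid, was at 13.1, 11.6 and 13.3 TPM in plvx neo, 18.1, 18.7 and 16.6 in STBD1 WT and 14.7, 16.03 and 15.7 in STBD1 W203C. Its 3 groups did not overlap and STBD1 W203C lay between the others. NEU1 rose by 0.52 in STBD1 WT vs plvx neo (SE 0.0765, edgeR adjusted p = 3.91e-05) and fell by 0.27 in STBD1 W203C vs STBD1 WT (SE 0.0671, edgeR adjusted p = 0.00488). In STBD1 W203C vs plvx neo it was at 0.25 with an edgeR adjusted p of 0.0586, and it passed in 6 of 16 alternatives, without plvx neo replicate 1 (0.0342), after the GC and length correction with and without the replicate block (0.0308 and 0.0299), with the block alone (0.0474) and under both other filters (0.0410 and 0.0474).

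Other glycan enzymes changed less. SGSH, the sulfamidase of heparan sulfate breakdown, was at 10.3, 8.38 and 9.41 TPM in plvx neo, 10.8, 11.7 and 11.8 in STBD1 WT and 9.60, 9.45 and 13.5 in STBD1 W203C, with 1 STBD1 W203C library above all others. Its rise of 0.29 in STBD1 WT vs plvx neo (SE 0.0832, edgeR adjusted p = 0.0116) was lost without STBD1 WT replicate 2 (0.134) or plvx neo replicate 3 (0.0532) and after the correction for GC content and length (0.14, edgeR adjusted p = 0.222), and SGSH overlaps SLC26A11 on the opposite strand. MANBA, the beta-mannosidase, rose by 0.24 in STBD1 WT vs plvx neo (SE 0.0684, edgeR adjusted p = 0.0125), a call lost without STBD1 WT replicate 1 (0.0549) or plvx neo replicate 3 (0.0708). IDS, which acts before IDUA on the same chains, rose by 0.19 in STBD1 WT vs plvx neo (edgeR adjusted p = 0.0190) and fell by 0.18 in STBD1 W203C vs STBD1 WT (0.0159). Its first call was lost without STBD1 WT replicate 2 or 3 or plvx neo replicate 1 or 3 (edgeR adjusted p from 0.0531 to 0.142), and the second without STBD1 W203C replicate 1 or 3 or STBD1 WT replicate 2 or 3 (0.0574 to 0.133). GLA, GLB1, GUSB, HEXA and NAGLU passed in no comparison, though GUSB stood at -0.18 in the first after the correction (edgeR adjusted p = 0.0106). GLA overlaps RPL36A, a far more abundant ribosomal gene at 2517 TPM, on the opposite strand.

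Progranulin, the product of GRN, is cut in the lysosome into granulins and binds several of these hydrolases. GRN (ENSG00000030582, chromosome 17, 44345246 to 44353106, plus strand) was at 91.8, 86.3 and 90.0 TPM in plvx neo, 128, 114.1 and 118 in STBD1 WT and 102, 111 and 108 in STBD1 W203C. Its 3 groups did not overlap. It rose by 0.40 in STBD1 WT vs plvx neo (SE 0.0421, edgeR adjusted p = 5.94e-07), fell by 0.25 in STBD1 W203C vs STBD1 WT (SE 0.0382, edgeR adjusted p = 4.64e-05) and was higher by 0.15 in STBD1 W203C vs plvx neo (SE 0.0417, edgeR adjusted p = 0.0386). The last call was lost without any library but plvx neo replicate 1 (edgeR adjusted p from 0.0672 to 0.229) and after the GC and length correction (0.0505). PSAP, the precursor of the saposins that present lipids to hydrolases, rose by 0.12 in STBD1 WT vs plvx neo (SE 0.0357, edgeR adjusted p = 0.0166) and fell by 0.16 in STBD1 W203C vs STBD1 WT (SE 0.0355, edgeR adjusted p = 0.00183). The rise was lost without STBD1 WT replicate 2 (0.0839) or plvx neo replicate 3 (0.106) and after the GC and length correction (0.132), which also left the fall at 0.10 (0.0177).

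The 8 protease genes went in both directions. CTSD (ENSG00000117984, chromosome 11, 1752752 to 1764573, minus strand), the main aspartic protease of the lysosome, was at 69.4, 65.7 and 68.7 TPM in plvx neo, 79.4, 77.6 and 81.0 in STBD1 WT and 76.8, 78.0 and 79.7 in STBD1 W203C. Both constructs lay above plvx neo in every library and overlapped each other. The log2 fold changes against plvx neo were 0.23 in STBD1 WT (SE 0.0419, edgeR adjusted p = 3.14e-04) and 0.16 in STBD1 W203C (SE 0.0434, edgeR adjusted p = 0.0247), and between the constructs -0.06 (95% interval -0.14 to 0.01). The correction for GC content and length lowered the first to 0.074 (edgeR adjusted p = 0.127), and the second was lost without any library but plvx neo replicate 1 (0.0562 to 0.113). TPP1, which removes tripeptides, rose by 0.23 in STBD1 WT vs plvx neo (SE 0.0455, edgeR adjusted p = 8.63e-04).

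Cysteine proteases of the cathepsin family did not move together. CTSB was at 143, 140.6 and 151 TPM in plvx neo, 155, 150.0 and 154 in STBD1 WT and 144, 143 and 134 in STBD1 W203C, and fell by 0.18 in STBD1 W203C vs STBD1 WT (SE 0.0359, edgeR adjusted p = 8.80e-04), or by 0.11 after the GC and length correction (0.0112). CTSC, which activates other proteases, was lower in STBD1 WT vs plvx neo by 0.24, a log2 fold change of -0.24 (SE 0.0576, edgeR adjusted p = 0.00319), and higher in STBD1 W203C vs STBD1 WT by 0.20 (SE 0.0601, edgeR adjusted p = 0.0177). The second call was lost without STBD1 W203C replicate 2 (0.056), STBD1 W203C replicate 3 (0.0677) or STBD1 WT replicate 2 (0.0829), and TPM of CTSC overlapped between the groups. CTSL was at 57.7, 63.1 and 60.3 TPM in plvx neo, 57.2, 57.9 and 57.5 in STBD1 WT and 58.3, 58.3 and 61.1 in STBD1 W203C. Its plvx neo libraries overlapped both constructs, while every STBD1 W203C library lay above every STBD1 WT library. The log2 fold changes of CTSL were -0.11, 0.02 and -0.09 in the 3 comparisons. After the GC and length correction its first value was -0.12 with an edgeR adjusted p of 0.041, beside a corrected median of -0.037 for all genes. CTSA, CTSH and CTSZ passed in no comparison, though CTSZ stood at 0.11 in the second after the correction (0.0258).

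Among the 5 lipid genes, PPT1, which removes palmitate from proteins, changed most. It was at 32.9, 40.1 and 37.1 TPM in plvx neo, 28.6, 33.5 and 30.6 in STBD1 WT and 34.9, 31.3 and 42.9 in STBD1 W203C, so that the groups overlapped. PPT1 fell by 0.32 in STBD1 WT vs plvx neo (SE 0.0528, edgeR adjusted p = 1.21e-04) and rose by 0.17 in STBD1 W203C vs STBD1 WT (SE 0.0583, edgeR adjusted p = 0.0384), a rise lost without any library but STBD1 W203C replicate 2 (0.0502 to 0.184) and by DESeq2 (0.0713). NPC2, which hands cholesterol to NPC1, fell by 0.14 and ASAH1, the acid ceramidase, rose by 0.14 in STBD1 W203C vs STBD1 WT (edgeR adjusted p = 0.0287 and 0.0422). The call of NPC2 was lost without any 1 of the 6 libraries (0.0569 to 0.0839) and that of ASAH1 without any library but STBD1 W203C replicate 2 (0.0603 to 0.205). SMPD1, the acid sphingomyelinase, passed in no comparison.

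**Figure D3:**
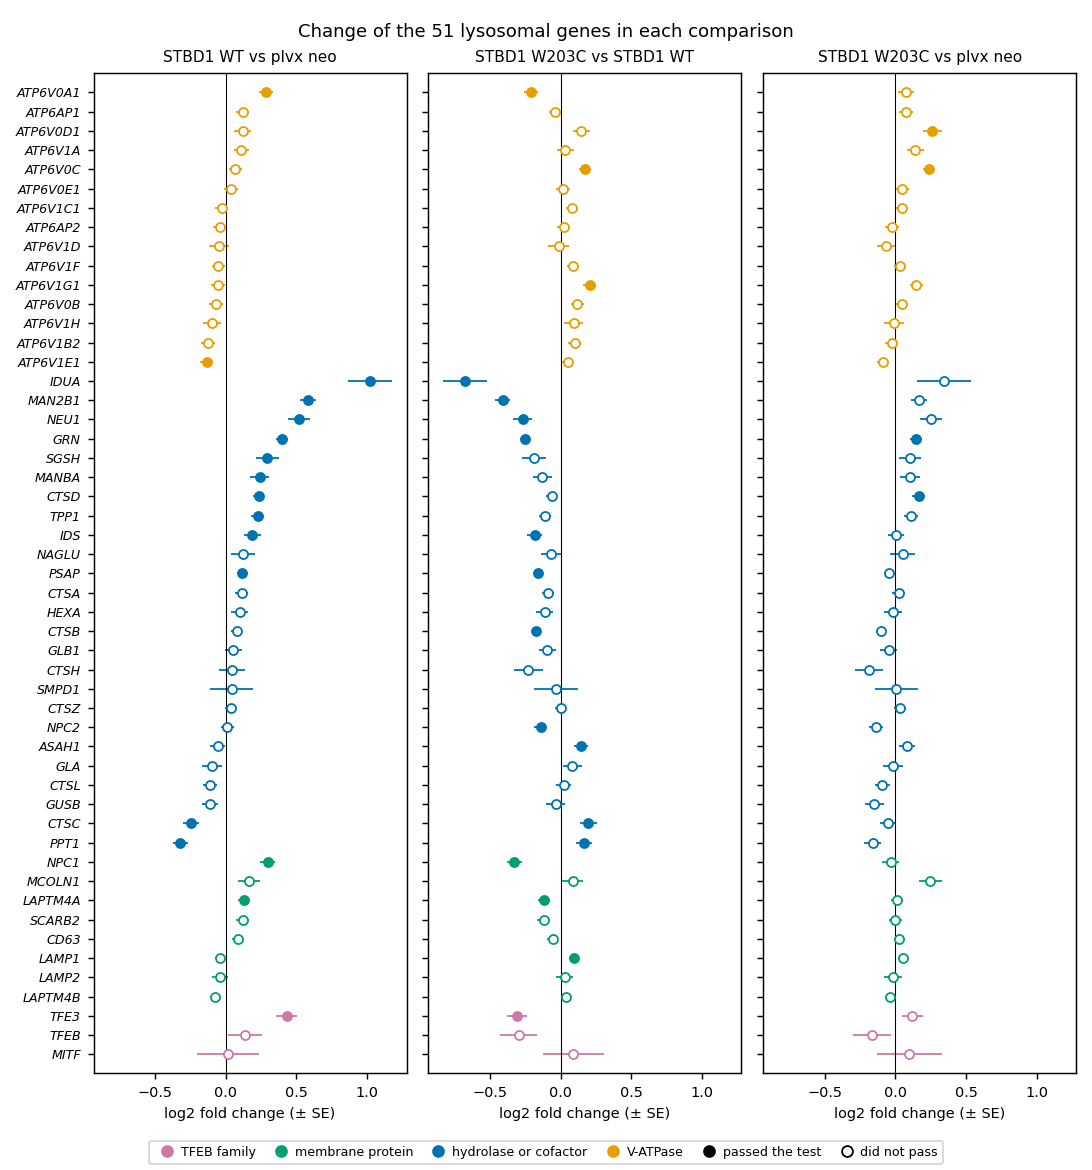
Log2 fold change of each of the 51 lysosomal genes in the 3 comparisons, with bars of 1 SE. Genes are grouped by kind and ordered within a kind by STBD1 WT vs plvx neo, filled points passed the edgeR test over all genes and open points did not; values reach 1.02 for IDUA and those of the V-ATPase genes stay between -0.21 and 0.29.

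In the first and the second comparison the proton pump genes and the hydrolase genes had medians of opposite sign. The 15 pump genes had a median log2 fold change of -0.041 in the first comparison, 0.078 in the second and 0.045 in the third. The numbers that passed were 2, 3 and 2 of 15, beside 27.8%, 27.9% and 5.7% of all genes. The corrected medians were -0.028, 0.067 and 0.058, and those of all genes -0.037, 0.037 and 0.0053, so that in the first comparison the pump lay near all genes. In the second comparison 12 of the 15 fold changes were above 0, beside 7297 of the 15052 for all genes tested. After the correction for GC content and length 6 genes passed as higher and 1 as lower, while 21.8% of all genes were then called higher. ATP6V0B, ATP6V0D1, ATP6V1B2 and ATP6V1F were the genes added. In the first comparison that correction left 1 gene higher and 4 lower, where 21.8% of all genes were called lower, and it turned ATP6V0C from 0.07 to -0.10 (edgeR adjusted p = 0.0388). The count of the first was 1 without STBD1 WT replicate 1 or 3 or plvx neo replicate 1 or 2, and that of the third 1 without STBD1 W203C replicate 1 or 2 or plvx neo replicate 2.

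The membrane part V0 held most of the pump genes that passed. ATP6V0C (ENSG00000185883, chromosome 16, 2513952 to 2520218, plus strand), which forms the proton-carrying ring, was at 136, 131 and 137 TPM in plvx neo, 152, 137 and 139 in STBD1 WT and 165, 164 and 163 in STBD1 W203C. All STBD1 W203C libraries were above all others. ATP6V0C rose by 0.24 against plvx neo (SE 0.0421, edgeR adjusted p = 8.64e-04) and by 0.17 against STBD1 WT (SE 0.0435, edgeR adjusted p = 0.00487), and both calls held in each of the 16 alternative fits. After the GC and length correction the second was 0.30. ATP6V0D1 (ENSG00000159720, chromosome 16, 67438014 to 67481181, minus strand), which joins the ring to the stalk, was at 28.1, 26.4 and 30.5 TPM in plvx neo, 31.0, 32.8 and 32.7 in STBD1 WT and 38.7, 35.7 and 31.6 in STBD1 W203C. Its plvx neo libraries were below all others and the 2 constructs overlapped. Its rise of 0.26 in STBD1 W203C vs plvx neo (SE 0.0656, edgeR adjusted p = 0.0175) was lost without STBD1 W203C replicate 1 (0.131), STBD1 W203C replicate 2 (0.0707) or plvx neo replicate 2 (0.0873).

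ATP6V0A1, an isoform of the large V0 subunit that also helps to target the pump, followed another order. It was at 21.4, 21.9 and 19.3 TPM in plvx neo, 27.5, 22.5 and 27.2 in STBD1 WT and 22.3, 25.1 and 21.0 in STBD1 W203C. STBD1 WT lay above plvx neo and overlapped STBD1 W203C. The log2 fold change was 0.29 in STBD1 WT vs plvx neo (SE 0.0501, edgeR adjusted p = 2.32e-04) and -0.21 in STBD1 W203C vs STBD1 WT (SE 0.0517, edgeR adjusted p = 0.00429). Both calls were lost by limma on log2(TPM + 1) (limma adjusted p = 0.0849 and 0.321).

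In the V1 part, 7 of 8 genes had a log2 fold change below 0 in STBD1 WT vs plvx neo, beside 7480 of the 15289 for all genes tested. Of the 7, ATP6V1E1 passed (-0.13, SE 0.0440, edgeR adjusted p = 0.0278). That call was lost without STBD1 WT replicate 1 or 3 or plvx neo replicate 1 or 2 (0.0654 to 0.117). ATP6V1G1 (ENSG00000136888, chromosome 9, 114587706 to 114598915, plus strand), a stalk subunit, was at 84.6, 94.2 and 91.9 TPM in plvx neo, 86.1, 89.4 and 86.1 in STBD1 WT and 101, 100.2 and 106 in STBD1 W203C. Its STBD1 W203C libraries were above all others. It rose by 0.21 in STBD1 W203C vs STBD1 WT (SE 0.0467, edgeR adjusted p = 0.00206), and its 0.15 in STBD1 W203C vs plvx neo had an edgeR adjusted p of 0.0754, or 0.17 and 0.0245 after the GC and length correction. ATP6V1H, the regulatory subunit H, was at 25.1, 24.0 and 24.3 TPM in plvx neo, 23.2, 22.04 and 25.5 in STBD1 WT and 27.03, 20.1 and 23.4 in STBD1 W203C. Its groups overlapped, and its log2 fold changes had 95% intervals from -0.22 to 0.03, -0.04 to 0.23 and -0.15 to 0.13 in the 3 comparisons. The V1 subunits ATP6V1A and ATP6V1B2 and the accessory subunits ATP6AP1 and ATP6AP2 passed in no comparison, nor did ATP6V0B, ATP6V0E1, ATP6V1C1, ATP6V1D and ATP6V1F.

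Genes with and without motif letters were then set side by side, as a description of the 37 genes with a promoter sequence. In the first comparison 2 of the 9 genes with CACGTG passed and 12 of the 28 without it, with medians of 0.11 and 0.049. In the second comparison the numbers were 3 of 9 and 12 of 28, with medians of 0.086 and -0.069. In the third they were 2 of 9 and 2 of 28, with medians of 0.15 and -3.1e-04. Of all genes tested 27.8%, 27.9% and 5.7% passed in the 3 comparisons, with medians of 0.0061, -0.0078 and -0.0031. IDUA, MAN2B1, GRN and TFE3, which rose in STBD1 WT, had no CACGTG in their windows, while NEU1 and CTSD, which also rose, each had 1. Only CACGTG and the longer form that holds it were searched, so that genes without them can hold other E-box letters.

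GC content moved with the fold changes between STBD1 WT and the other groups. Transcripts of the 51 genes ranged from 38.5% to 68.6% GC, with a median of 51.4% beside 50.3% for all genes tested. Correcting for GC content and length moved the 9 genes with at least 60% GC by -0.19 to -0.13 on the log2 scale in the first comparison, by 0.11 to 0.13 in the second and by -0.058 to -0.010 in the third. The median of all genes tested moved from 0.0061 to -0.037 in the first comparison and from -0.0078 to 0.037 in the second. IDUA, MAN2B1, NEU1, GRN, TFE3, NPC1 and ATP6V0A1 kept their calls and directions in the first and second comparison under the correction. IDUA then stood at 0.83 and -0.54, MAN2B1 at 0.46 and -0.31, NEU1 at 0.48 and -0.21 and GRN at 0.25 and -0.12. By limma on log2(TPM + 1), however, all of these genes but MAN2B1 lost their call in the second comparison. The limma adjusted p ran from 0.0615 for NPC1 to 0.321 for ATP6V0A1. The difference between transcript length and effective length, which follows the fragment length, was 240 to 247 bases in plvx neo, 250.1 to 263 in STBD1 WT and 245 to 257 in STBD1 W203C. The part of GC content and of fragment length in the results was not tested.

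**Figure D4:**
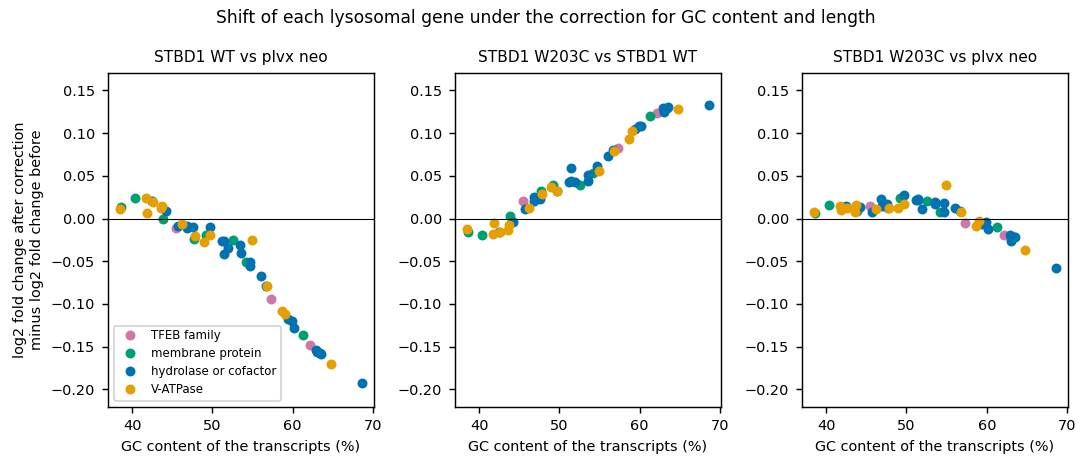
Difference between the log2 fold change after and before the correction for GC content and length, against GC content in percent of the transcripts, for the 51 lysosomal genes in each comparison. Points are genes, coloured by kind; in STBD1 WT vs plvx neo the shift reaches -0.19 at the highest GC content, in STBD1 W203C vs STBD1 WT it is positive there with 0.13, and in STBD1 W203C vs plvx neo it stays between -0.058 and 0.040.

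A wider list of 72 other lysosomal pathway genes held further hydrolases, membrane proteins, pump isoforms, sorting receptors and regulators of TFEB. All genes passed at 27.8%, 27.9% and 5.7% in the 3 comparisons. Of 65 tested in STBD1 WT vs plvx neo 21 passed (32.3%), 13 higher and 8 lower, and without STBD1 WT replicate 3 the number was 13. In the second comparison 16 of 65 passed (24.6%), 5 higher and 11 lower. In the third 1 of 64 passed (1.56%), the cysteine protease gene LGMN at a log2 fold change of -0.21 (edgeR adjusted p = 0.0256), a call lost without STBD1 W203C replicate 1 or 3 or plvx neo replicate 3. The genes listed as other hydrolases gave 9 of 22 in the first comparison, 7 of them higher, and 8 of 22 in the second, 7 of them lower. Among those that passed, the largest changes in these 2 comparisons were those of ARSA, HGSNAT and FUCA1. ARSA, arylsulfatase A, was at 0.72 and -0.75, and FUCA1, the alpha-fucosidase, at 0.40 and -0.32. HGSNAT, at 0.54 and -0.47, is an acetyltransferase of heparan sulfate breakdown and not a hydrolase. TCIRG1, another isoform of the large V0 subunit, was at 0.49 and -0.33, and LAMP3, a relative of LAMP1, at 0.47 in the first comparison and at -0.32 in the second, where it did not pass (edgeR adjusted p = 0.164).

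GAA itself was at 50.4, 54.6 and 56.0 TPM in plvx neo, 68.4, 63.6 and 68.6 in STBD1 WT and 60.8, 58.7 and 55.8 in STBD1 W203C, with STBD1 WT above all others. It rose by 0.29 in STBD1 WT vs plvx neo (SE 0.0388, edgeR adjusted p = 1.34e-05) and fell by 0.26 in STBD1 W203C vs STBD1 WT (SE 0.0388, edgeR adjusted p = 2.93e-05). Its value in STBD1 W203C vs plvx neo was 0.02 (95% interval -0.06 to 0.10). Of the genes that control TFEB at the lysosome, 2 of 14 (14.3%) passed in each of the first and second comparisons, a smaller share than of all genes: FNIP2 and RPTOR, both lower in STBD1 WT than in plvx neo at -0.35 and -0.21, and MTOR and RPTOR, both higher in STBD1 W203C than in STBD1 WT at 0.21 and 0.29.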

How the data were processed

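RNA of 9 libraries was extracted with TRIzol, prepared with a NEBNext Ultra kit and sequenced on an Illumina platform with paired ends, per the labels and the study's methods. The authors aligned reads to hg38 with STAR 2.7.1a and estimated expected counts per Ensembl gene with RSEM 1.3.1, which are not whole numbers and are not normalized. TPM values in the deposited tables were also made by the authors with RSEM, by dividing by effective transcript length and scaling each library to the same sum. FPKM values in the same tables were not used. Whether counting used strand was not given in the sources used here.

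Expected counts were rounded and tested with edgeR 4.0.16 in R 4.3.3 (TMM, filterByExpr, quasi-likelihood F test, two-sided), each pair of groups alone, with Benjamini-Hochberg adjustment over all genes tested and a threshold of 0.05. From 15052 to 15289 genes were tested. SE is the size of the log2 fold change divided by the root of F, and 95% intervals assume normal errors. TPM served for levels. The script was tested on simulated data. Alternatives used DESeq2 1.42.0, limma 3.58.1 on log2(TPM + pseudocount) with pseudocounts of 1 and 0.1, other filters and scalings, a correction for GC content and length with splines of 5 degrees of freedom, a replicate block and fits without 1 library. Gene positions came from GENCODE (hg38) and promoters from RefSeq.

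The members and all lists were chosen with earlier results of these data known. TPM of every library was given for TFEB, TFE3, MITF, LAMP1, LAMP2, CTSD, CTSB, CTSL, GRN, ATP6V0D1 and ATP6V1H whatever their result and for the 8 members with the largest change among those that passed in each comparison, and other members that passed were named with their fold change. Outside the members, GAA, STBD1 and the 4 other pathway genes with the largest change that passed were named. MCOLN1, SCARB2 and the remaining genes named were chosen after their values were seen.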

Additional observations from a re-analysis of the deposited data

How the results depend on the processing

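The number of lysosomal genes that passed stayed within 1.5 times of 17, 18 and 4 in the first, the second and the third comparison under DESeq2, other scalings and filters, all 9 libraries in 1 fit and the GC and length correction. limma called 9, 3 and 1 genes on log2(TPM + 0.1) and 9, 3 and 2 on log2(TPM + 1), and it called fewer of all genes too (1751, 1828 and 131 on log2(TPM + 1), where edgeR called 4254, 4202 and 859). The cause was not tested. A minimum change of 1.5 times left 1, 1 and 0 genes, while 15 genes had an unadjusted p below 0.05 by edgeR in the third comparison and DESeq2 called 4. Fits without 1 library called 12 to 16, 12 to 14 and 1 to 5 genes. Their medians ranged from 0.052 to 0.095, from -0.050 to 0.0094 and from 0.025 to 0.036. Under the GC and length correction the median was 0.0097 in the first comparison and 0.027 in the second, and with the replicate block added 0.011 and 0.029. In the third comparison it was 0.082 and 0.078 by limma with the smaller and the larger pseudocount. ATP6V0C reversed in the first comparison, to -0.10 under the GC and length correction (edgeR adjusted p = 0.0388) and to -0.10 with the replicate block added (0.0320). Under that correction the median of all genes moved from 0.0061 to -0.037 in this comparison. The samples share only a replicate number: deviations of same-numbered libraries correlated with mean r of 0.020, -0.0091 and 0.0087. With the replicate block 20, 13 and 5 genes passed, with medians of 0.069, -0.033 and 0.028. Of 1008 values of the named members and GAA under the alternatives, 925 stayed on their side of the threshold, 66 lost the call, 15 gained it and 2 reversed. Changes of sign in a gene that passed in neither fit are counted among the 925. Depth limits MITF and IDUA most, with expected counts as low as 44 and 54.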
